A study of Mus musculus with 4 samples.

Results

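The 10 pluripotency factor genes Pou5f1, Sox2, Nanog, Klf4, Myc, Lin28a, Esrrb, Zfp42, Sall4 and Tet1 were described by their accessible chromatin. Every peak that overlapped the body of one of these genes, or the 50 kb on either side of it, was taken, on mm10 coordinates of RefSeq genes. The peaks merged into 82 regions, of 90239 in all, wherever peaks of different libraries shared at least 1 bp. Accessibility was measured by ATAC-seq, in which a transposase cuts and tags open DNA. The cells were iMGT-Myh6-eGFP-MEFs, a line of mouse embryonic fibroblasts in which doxycycline (1 μg/mL) induces MGT, that is Mef2c, Gata4 and Tbx5, factors that drive fibroblasts towards heart muscle cells. All 4 libraries were made at day 1 of induction, 2 from cells given a control siRNA (siControl) and 2 from cells given an siRNA against the sulfotransferase gene Chst7 (siChst7), transfected 1 day before induction, so both groups carry the induced heart factors. The siControl lists held 73902 and 75696 peaks and the siChst7 lists 74402 and 66165. The labels name biological replicates of 1 line without saying whether they were separate cultures, so a difference is set only against the spread between these libraries.

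Pou5f1 (also called Oct4), Sox2 and Nanog form the core transcription factor circuit of embryonic stem cells, where they bind one another's regulatory DNA and keep it open. Klf4 and Myc, with Pou5f1 and Sox2, are the classical factors that turn fibroblasts into induced pluripotent cells, and the RNA-binding protein Lin28a, which blocks maturation of let-7 microRNAs, can assist them. Esrrb, a nuclear receptor, Zfp42 (Rex1), a zinc finger marker of the naive state, Sall4, a zinc finger repressor, and Tet1, an enzyme that oxidises methylated cytosine, belong to the wider network. In fibroblasts the core genes are normally silent, whereas Klf4 and Myc are also growth and stress response genes of somatic cells.

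The 10 genes fell into 2 sets by whether a peak lay at the gene start. Sox2, Klf4, Myc and Tet1 had a peak within 1 kb of an annotated start in each of the 4 libraries. Pou5f1, Nanog, Lin28a, Esrrb, Zfp42 and Sall4 had none there in any library. Among all 21883 protein-coding genes, 53.8% had a start peak in all 4 libraries and 42.0% had none in any, so 4 of 10 against 6 of 10 was not far from the genome as a whole. None of the 10 had a start peak in the siChst7 pair alone, against 0.0823% of all protein-coding genes, or in the siControl pair alone, against 0.32%. The libraries are of bulk cells, so a site open in few cells and a site weakly open in many cannot be told apart. A missing peak means only that no peak was listed: the weakest listed peaks rested on 8 or 9 reads at the summit, and weaker signal would not appear. The gene table holds pseudogene copies of Pou5f1, Nanog and Zfp42, and how reads matching several places were treated is not given in the sources used here. For those 3 genes a missing peak inside the exons is therefore uncertain.

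**Figure D1:**
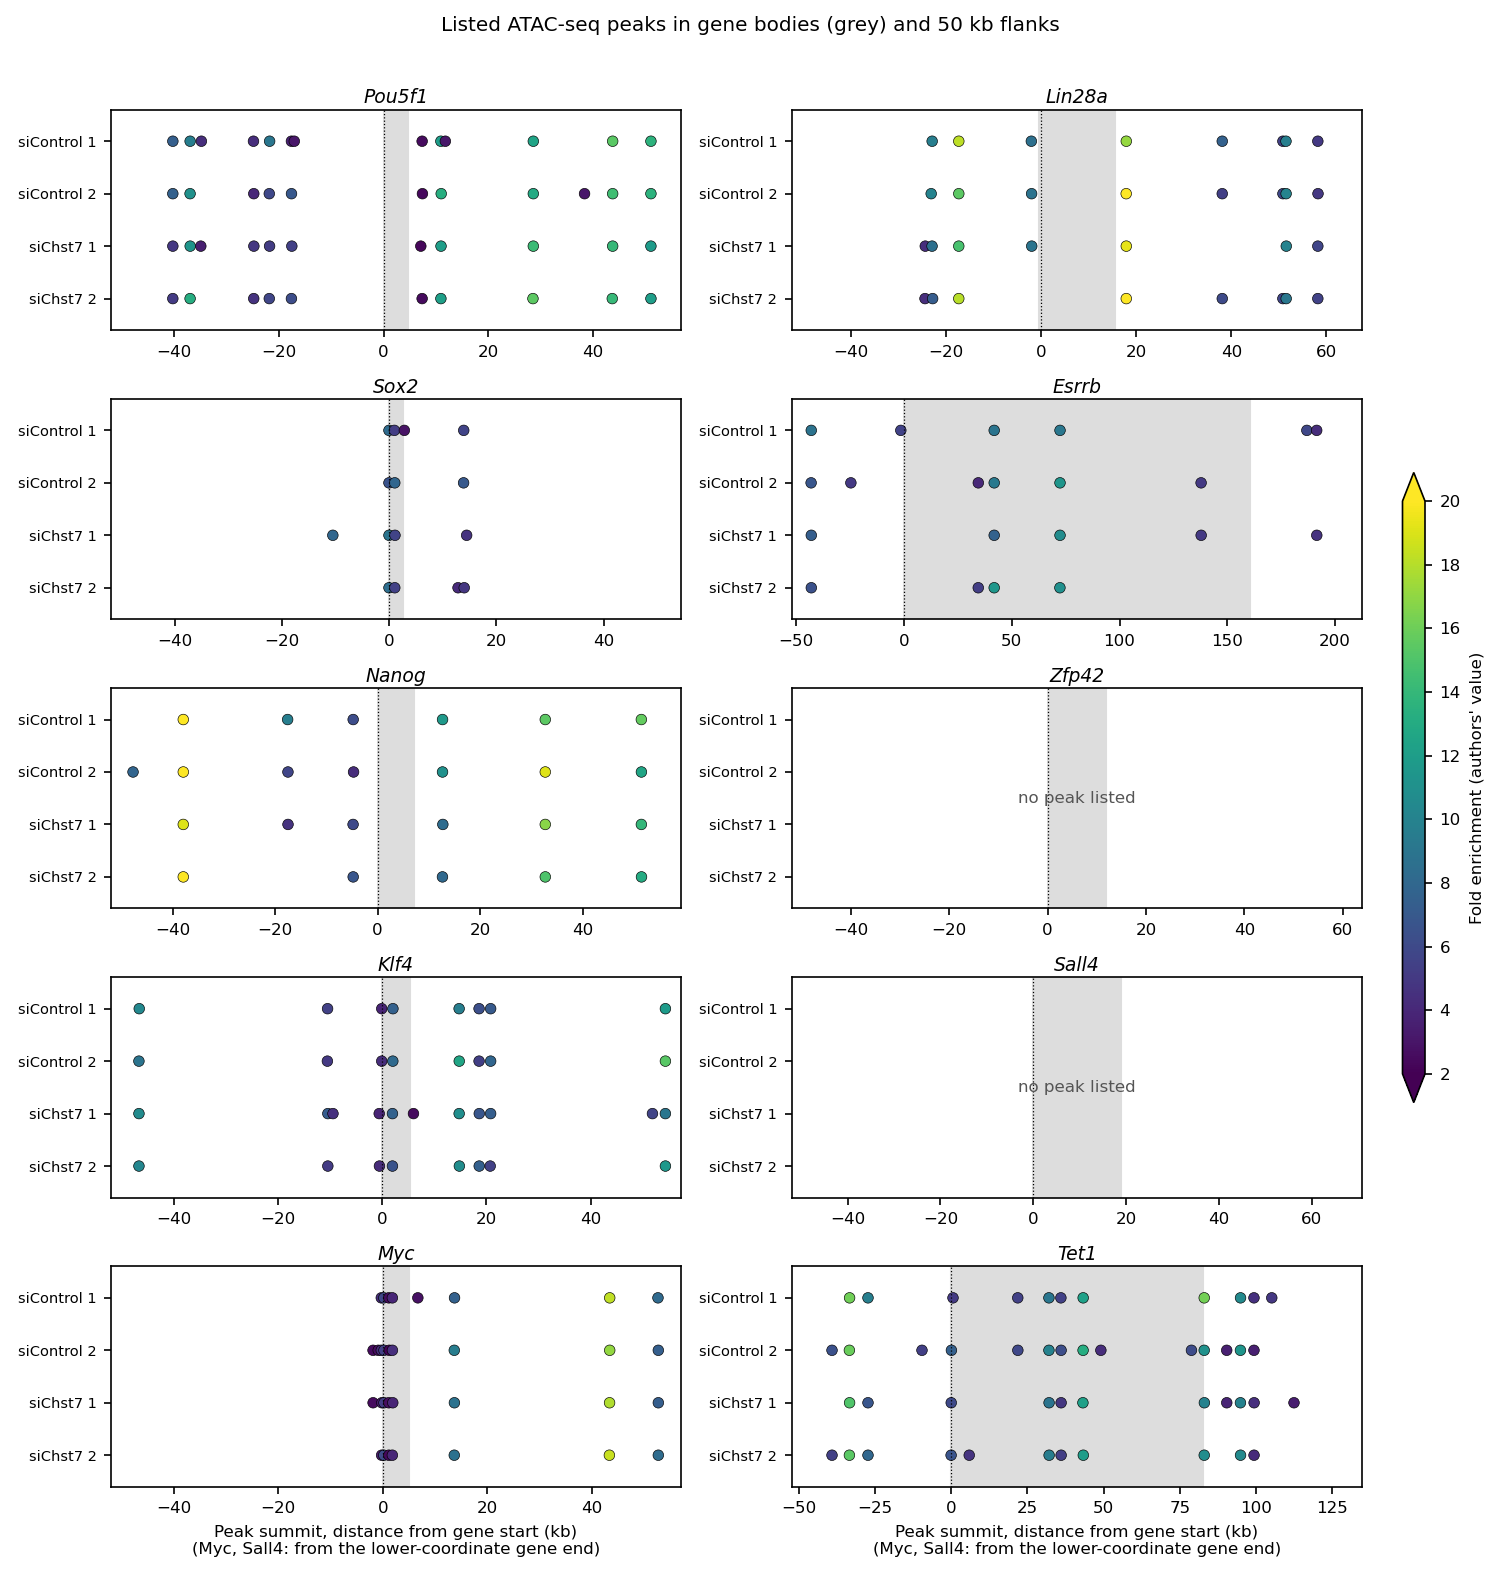
Each panel shows 1 gene with its body in grey, the distance of each peak summit from the gene start in kb on the x axis (for Myc and Sall4, from the gene end with the lower coordinate) and 1 row of points for each library, coloured by the authors' fold enrichment. Sox2, Klf4, Myc and Tet1 have points at the start in all 4 rows, while the panels of Zfp42 and Sall4 are empty.

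The promoters of the 2 sets differed in CpG content, which the choice of genes did not use. RefSeq promoter sequences (GRCm38.p6, the assembly of mm10, 250 bases before to 50 after a start) were found for 8 of the 10 genes, all but Myc and Sall4. They are shown for 3 genes with no start peak and 3 with one, because the density of CpG can be read from them. Each sequence is the 300 bases on the strand of its gene, and capitals mark every CpG.
Nanog (no start peak, chr6:122707239-122707538, plus strand): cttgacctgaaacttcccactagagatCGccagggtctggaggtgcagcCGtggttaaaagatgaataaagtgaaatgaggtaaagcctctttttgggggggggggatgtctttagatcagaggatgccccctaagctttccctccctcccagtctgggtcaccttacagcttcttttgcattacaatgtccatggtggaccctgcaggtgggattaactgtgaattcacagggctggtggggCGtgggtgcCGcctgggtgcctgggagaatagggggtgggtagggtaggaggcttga
Pou5f1 (no start peak, chr17:35505782-35506081, plus strand): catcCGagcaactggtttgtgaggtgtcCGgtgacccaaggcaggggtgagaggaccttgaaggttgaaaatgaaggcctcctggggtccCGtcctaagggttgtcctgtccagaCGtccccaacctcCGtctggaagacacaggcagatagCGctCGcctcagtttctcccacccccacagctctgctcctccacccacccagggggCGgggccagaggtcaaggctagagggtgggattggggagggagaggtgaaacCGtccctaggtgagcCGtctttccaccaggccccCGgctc
Zfp42 (no start peak, chr8:43306960-43307259, minus strand): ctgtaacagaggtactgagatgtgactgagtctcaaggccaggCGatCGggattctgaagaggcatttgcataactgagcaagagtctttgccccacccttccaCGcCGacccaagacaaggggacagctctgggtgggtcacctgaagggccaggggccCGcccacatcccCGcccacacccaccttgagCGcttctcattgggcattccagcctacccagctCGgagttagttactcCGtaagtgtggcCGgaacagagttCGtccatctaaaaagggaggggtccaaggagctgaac
Sox2 (start peak, chr3:34649745-34650044, plus strand): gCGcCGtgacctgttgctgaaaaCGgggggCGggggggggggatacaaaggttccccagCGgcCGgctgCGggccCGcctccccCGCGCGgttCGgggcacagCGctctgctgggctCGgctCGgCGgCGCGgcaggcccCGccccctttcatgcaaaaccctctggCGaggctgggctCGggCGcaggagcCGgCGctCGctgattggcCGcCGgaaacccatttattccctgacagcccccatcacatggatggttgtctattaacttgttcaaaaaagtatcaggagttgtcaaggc
Klf4 (start peak, chr4:55532426-55532725, minus strand): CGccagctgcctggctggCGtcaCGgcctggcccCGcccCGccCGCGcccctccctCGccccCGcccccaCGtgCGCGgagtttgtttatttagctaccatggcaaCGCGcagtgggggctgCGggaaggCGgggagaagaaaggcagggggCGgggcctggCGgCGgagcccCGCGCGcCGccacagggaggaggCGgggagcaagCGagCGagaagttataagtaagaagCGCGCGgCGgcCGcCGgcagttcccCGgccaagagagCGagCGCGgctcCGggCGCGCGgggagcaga
Tet1 (start peak, chr10:62887275-62887574, minus strand): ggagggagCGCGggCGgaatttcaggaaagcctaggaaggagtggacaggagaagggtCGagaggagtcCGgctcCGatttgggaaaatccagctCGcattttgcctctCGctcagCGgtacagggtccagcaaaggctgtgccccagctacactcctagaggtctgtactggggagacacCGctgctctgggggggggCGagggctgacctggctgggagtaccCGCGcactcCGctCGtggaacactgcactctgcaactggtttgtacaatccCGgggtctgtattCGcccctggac

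Nanog had 4 CpG in these 300 bases, Pou5f1 11 and Zfp42 11, whereas Tet1 had 17, Sox2 27 and Klf4 40. As a ratio of observed to expected CpG, the first promoters of the genes without a start peak ran from 0.192 in Nanog through 0.266 in Esrrb, 0.351 in Lin28a and 0.374 in Pou5f1 to 0.441 in Zfp42. Those with a start peak had 0.607 in Tet1, 0.819 in Sox2 and 0.974 in Klf4. The ranges do not overlap, and all 3 open promoters lie above 0.6. The same order runs through all 21262 promoters of protein-coding genes in the table. Of those with a ratio under 0.2, 8.84% had a peak within 1 kb in all 4 libraries. The share was 22.8% from 0.2 to 0.4, 52.9% from 0.4 to 0.6, 78.1% from 0.6 to 0.8 and 88.4% above 0.8. The 8 genes thus followed a relation seen across the genome, and 8 promoters are too few to say more.

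**Figure D2:**
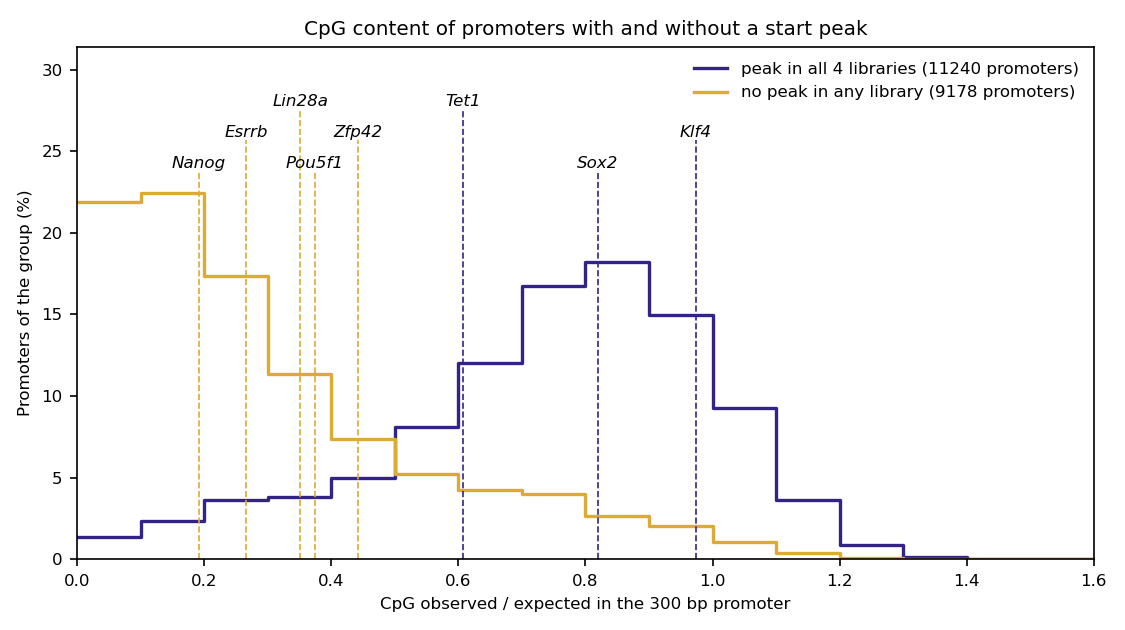
The lines give the percent of promoters (y axis) by their observed to expected CpG ratio (x axis) for promoters with a start peak in all 4 libraries and for those with none in any, and dashed lines mark the first promoter of each member. Nanog, Esrrb, Lin28a, Pou5f1 and Zfp42 stand at or below 0.441, and Tet1, Sox2 and Klf4 at or above 0.607.

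Short sequence patterns were searched on both strands of the same windows. The joint OCT-SOX pattern, searched with 1 base left free, occurs in the Nanog promoter as TTTGCATTACAATG, at position −75 from the first annotated start. It occurs in 0.00941% of all promoter windows (2 of 21262), and both are the overlapping windows of the 2 annotated Nanog starts. The octamer ATTTGCAT, whose last 7 bases open the joint pattern, occurs in the Zfp42 promoter at position −186 and in 1.66% of all promoters. Both matches therefore lie in promoters with no listed peak. The GC box GGGCGG occurs in the first promoters of Pou5f1, Sox2, Klf4, Lin28a, Zfp42 and Tet1, with 4 copies in Klf4, and in 46.2% of all promoters. CCAAT occurs in the first promoters of Pou5f1, Sox2 and Zfp42, in the second ones of Pou5f1 and Esrrb, and in 38.2% of all promoters. TATAAA (12.6% of promoters) and the AP-1 pattern TGANTCA (6.99%) were found in none of the 11 member promoters. A match describes letters only, and no binding was measured.

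Of the core circuit, Sox2 alone was open at its start. The region over the start (chr3:34649825-34650285) had a fold enrichment, the authors' ratio of summit pileup over local background, of 8.25 and 6.63 in siControl and 9.01 and 8.46 in siChst7. Its −log10 q, the authors' measure of confidence after correction over the list, was 41.1 and 25.8 with siControl, and 45.0 and 32.6 with siChst7. Solved from the authors' fold and p, the summit held 72 and 53 reads with siControl, and 74 and 55 with siChst7. Dividing by the median of each library's regions called in all 4 libraries (60, 58, 61 and 46 reads) gives relative summit reads of 1.20 and 0.914 for siControl, and 1.21 and 1.20 for siChst7, so the Sox2 start was about as open as a typical shared region. Both siChst7 libraries exceeded both siControl libraries in fold, by little, and overlapped with them in relative summit reads. The summit lay at −78 bases from the start in both siControl libraries and at −74 and −73 in siChst7.

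A second region over the single exon of Sox2 (chr3:34650516-34651396) had relative summit reads of 0.783 and 1.12 in siControl and 0.787 and 0.783 in siChst7. The 3 libraries other than siControl replicate 2 were nearly equal. One more region called in all 4 libraries lay 13.3 kb beyond the start, with fold enrichments of 5.63 and 6.94 in siControl and 4.62 and 4.84 in siChst7. The other 3 regions of the locus were each called in 1 library. One of these, 10.4 kb before the start (chr3:34639334-34639637), had the highest −log10 q of the Sox2 flanks, 15.02 in siChst7 replicate 1, from 23 summit reads. All 6 lie within the span of Sox2ot, a long non-coding gene that overlaps Sox2, and no start of another protein-coding gene was within 1 kb of any of the 6 regions.

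Pou5f1 had no region in its body, and the nearest ones lay 16.96 kb before and 2.28 kb behind it. Its flanks were nevertheless busy, with 13 regions, 10 of them in all 4 libraries. The highest by −log10 q covered the facing starts of Tcf19 and Cchcr1 (chr17:35516366-35517226). There siControl had fold enrichments of 11.96 and 13.3, and siChst7 had 11.99 and 12.1. The relative summit reads were 5.58, 5.95, 5.79 and 5.67. This site covers the starts of 2 neighbouring genes, 7.56 kb from the nearest Pou5f1 start. On the other side of Pou5f1 the regions lay around and behind H2-Q10, a class I histocompatibility gene, and included one 0.819 kb from an end of H2-Q10, with fold enrichments of 9.66 and 11.1 in siControl and 11.4 and 13.2 in siChst7.

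Nanog likewise had no region in its body, and the nearest ones lay 4.52 kb before and 5.28 kb behind it. The region before it (chr6:122702528-122702967) was weak but called in all 4 libraries, with 17 and 11 summit reads in siControl and 17 and 16 in siChst7. The region with the highest −log10 q lay 37.6 kb before the start (chr6:122669294-122669852). Its fold enrichment with siControl was 24.4 and 23.1, and with siChst7 19.1 and 20.3, and its relative summit reads were 1.58, 1.41, 1.28 and 1.39. Both siChst7 libraries were below both siControl libraries there, on a log2 difference of −0.17. The 3 other shared regions lay on the far side of Nanog, 2 of them inside Slc2a3, which encodes the glucose transporter GLUT3. One of the 3, 12.4 kb from the nearest Nanog start, was also lower with siChst7, with relative summit reads of 0.550 and 0.517 in siControl and 0.393 and 0.413 in siChst7.

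Klf4 was open at its start and inside its body. The region over the start (chr4:55532440-55533064) had fold enrichments of 3.79 and 4.27 in siControl and 3.80 and 4.21 in siChst7. Its relative summit reads were 1.47, 1.53, 1.39 and 1.54, so the low fold stood on an above-median number of reads over a high local background of 16.1 to 22.5 reads. The summit of this region lay at −61 and −63 bases from the start in siControl, and at −547 and −503 bases in siChst7, although its width was alike, between 607 and 615 bp. A summit position within 50 bp in each group and at least 200 bp apart between groups was found in 0.245% of all shared regions and in 0.14% of those of 500 to 750 bp, and in 1 of the 49 described here. An end of the non-coding gene Gm12506 lies within 1 kb of this region, and also within 1 kb of the wider Klf4 region described next. The summit position was singled out after its values were seen and was not tested.

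The wider Klf4 region (chr4:55530086-55531725), wholly inside the body, held 185 and 179 summit reads in siControl and 185 and 119 in siChst7. Its relative summit reads were 3.08 and 3.09 in siControl and 3.03 and 2.59 in siChst7. Only siChst7 replicate 2 stood clearly lower. The other 6 regions called in all 4 libraries lay from 9.82 to 53.9 kb away on both sides, and in none of them was the start of another protein-coding gene nearer than that of Klf4. The one with the highest −log10 q, 14.5 kb behind the start (chr4:55517502-55517930), had fold enrichments of 9.62 and 12.6 in siControl and 10.8 and 10.8 in siChst7.

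Myc, a growth-promoting transcription factor, had the highest relative summit reads of the start regions. Sox2 had the highest median fold enrichment (8.35 against 5.65 for Myc). The highest median −log10 q was that of the wider Klf4 region, 0.75 kb from the Klf4 start (94.6 against 81.3 for Myc). The region over the Klf4 start itself had 22.8. Both annotated gene ends of Myc were used as its start. The region just inside the gene end at 61985341 (chr15:61985431-61985902) held 230 and 209 summit reads in siControl and 221 and 184 in siChst7. Its relative summit reads were 3.83, 3.60, 3.62 and 4.0 and its fold enrichments 5.81 and 5.49 in siControl and 5.19 and 6.08 in siChst7. The local background there was 29.4 to 41.7 reads, against library medians of 3.68 to 4.55 over all peaks whose reads could be recovered. The region was among the upper 15.8% to 18.3% of each list by −log10 q, and the groups overlap.

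The region just outside the same end of Myc (chr15:61984748-61985241) was lower in both siChst7 libraries. It held 169 and 162 summit reads in siControl and 139 and 100 in siChst7. The relative summit reads were 2.82 and 2.79 in siControl and 2.28 and 2.17 in siChst7, a log2 difference of −0.33, and the fold enrichments 4.27 and 4.26 against 3.27 and 3.32. The gap between the groups exceeded the gap within each. At its inner neighbour, described above, the groups overlapped. A further region 0.8 kb outside this end (chr15:61984360-61984541) was called in siControl replicate 2 alone, with 99 summit reads and a −log10 q of 14.7. The 2 further regions in the body were called in all 4 libraries. The region with the highest −log10 q lay 37.9 kb beyond the other gene end (chr15:62028259-62028971), between Myc and the non-coding gene Pvt1, with fold enrichments of 18.3 and 17.1 in siControl and 17.9 and 18.5 in siChst7. It ranked among the upper 2.19% to 4.78% of each list, and a further region at the start of Pvt1 was also called in all 4.

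Lin28a had no region in its body. A region 1.80 kb before its annotated start (chr4:134020615-134020949) was called in 3 libraries, with fold enrichments of 8.57 and 8.88 in siControl and 8.92 in siChst7 replicate 1. It was not listed in siChst7 replicate 2, and the reason was not tested. The 2 regions of Lin28a at coding starts covered the starts of other genes, Dhdds, which is needed for dolichol synthesis, and Hmgn2, a nucleosome binding protein. The Dhdds region (chr4:134000466-134001257) was the highest of the locus, where siControl had fold enrichments of 17.2 and 20.4 and siChst7 had 19.3 and 20.1, so the groups overlap.

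**Figure D3:**
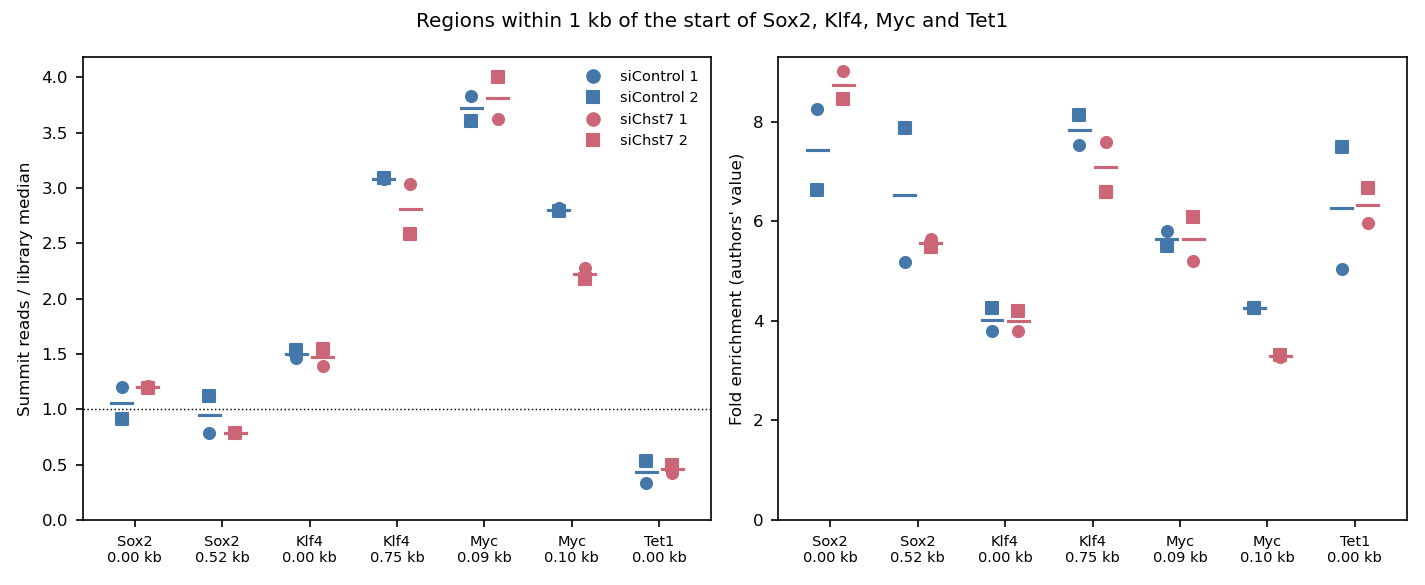
Each point is 1 library, for the 7 regions called in all 4 libraries within 1 kb of the start of Sox2, Klf4, Myc and Tet1 (x axis: gene and distance of the region from the start), with a bar at the mean of the 2 libraries of a group; the left y axis gives summit reads divided by the library's median, the right one the authors' fold enrichment. Myc and Klf4 stand above the dotted library median and Tet1 below it, and the outer Myc region at 0.10 kb is lower in both siChst7 libraries on both scales.

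Among the other network factors, Tet1 was open weakly at its start and more strongly inside its body. The start region (chr10:62886078-62887526) held 20 and 31 summit reads in siControl and 26 and 23 in siChst7, that is relative summit reads of 0.333, 0.534, 0.426 and 0.500. It was the weakest of the shared start regions, with a −log10 q of 8.42 and 18.0 in siControl and 12.5 and 12.6 in siChst7, and the groups overlap. Inside the gene, the region 43.0 kb from the start (chr10:62843662-62844344) had fold enrichments of 12.2 and 13.1 in siControl and 12.2 and 11.9 in siChst7. Its relative summit reads were 2.20 and 2.28 in siControl and 1.90 and 1.89 in siChst7, a log2 difference of −0.24 with no overlap between the groups. A region 35.5 kb from the start was lower with siChst7 as well (0.900 and 0.966 against 0.803 and 0.848), and one 31.8 kb from it was higher (1.28 and 1.36 against 1.38 and 1.43). At the last of these the groups overlapped in fold enrichment, and none of the 3 was tested. In the flanks the strongest sites covered the starts of Ccar1 and Slc25a16, and the Ccar1 one (chr10:62792043-62792919) had relative summit reads of 5.22, 5.71, 4.95 and 5.30.

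Esrrb, whose body spans 160.5 kb, had no peak at either annotated start. It held 4 regions in its body, 2 of them called in all 4 libraries. The stronger (chr12:86433224-86433633) had 33 and 42 summit reads in siControl and 35 and 31 in siChst7, with fold enrichments of 9.16, 11.4, 10.7 and 11.0. The highest flank region lay 42.6 kb before the first start (chr12:86317631-86318484), with fold enrichments of 8.88 and 6.83 in siControl, and 7.29 and 6.48 in siChst7. The groups overlap at both, as they did at the other shared region of the body. With 3.45 regions per 100 kb, Esrrb was the sparsest of the 8 loci that had any.

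Zfp42 and Sall4 had no region at all in the body or the 50 kb on either side, in any library. Among all protein-coding genes, 13.2% had none. Zfp42 lies in a stretch of 2649 kb without a listed peak, the nearest being 786 kb and 1851 kb away, while around Sall4 the nearest lay 56.2 kb and 60.1 kb from the gene. The median over all protein-coding genes was 9 regions in such a window, and over the 10 genes 8.5.

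**Figure D4:**
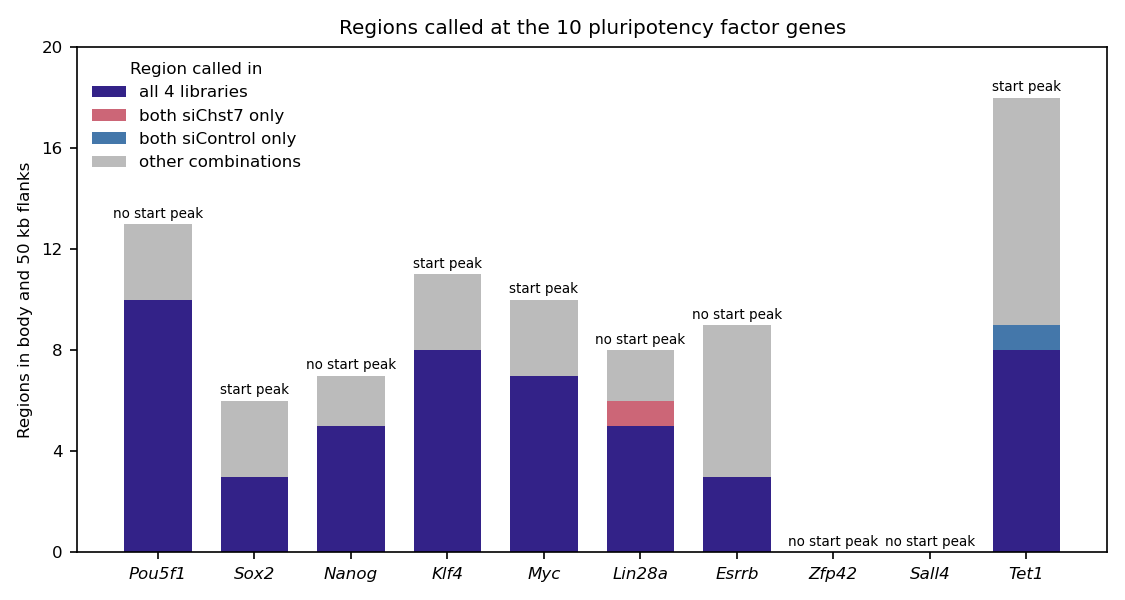
Bars give the number of regions (y axis) in the body and 50 kb flanks of each gene, split by the libraries in which they were called. Tet1 has 18 regions and Zfp42 and Sall4 none; 1 region of Lin28a and 1 of Tet1 were called with only one siRNA.

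The comparison of siChst7 with siControl asks whether accessibility at these genes differed between the 2 siRNAs. Calls split by siRNA at 2 of the 82 regions. Of the 82 regions, 49 (59.8%) were called in all 4 libraries, against 62.0% of all regions. A single region (1.22%) was called with siChst7 alone, in both of its libraries, against 1.24% of all regions. Another 1 was called with siControl alone, against 2.84%. A further 20 regions (24.4%) were called in a single library, against 17.5% of all regions, and their median −log10 q was 6.72, against 29.1 for the 49.

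The siChst7 region lay 24.2 kb before Lin28a (chr4:134043021-134043285), with 17 and 13 summit reads and −log10 q of 6.18 and 4.90. The siControl region lay inside Tet1, 21.7 kb from its start (chr10:62865262-62865631), with 16 and 20 summit reads and −log10 q of 7.87 and 9.96. Both are in the weaker part of their lists, and neither call held when peaks needed a −log10 q of at least 10. The counts changed when a library was left out, here as over all regions, since 1 call then suffices, or 1 absence, for that group. The siControl count was 8 without siControl replicate 1 (9.03% of all regions), 7 without siControl replicate 2 (7.89%), 3 without siChst7 replicate 1 (8.60%) and 2 without siChst7 replicate 2 (4.56%). The siChst7 count in the same order was 2 (3.05%), 1 (3.23%), 3 (3.55%) and 6 (6.53%).

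At the 49 shared regions the levels can be set side by side, scaled by each library's median. In relative summit reads, both siChst7 libraries were below both siControl libraries at 11 regions (22.4%) and above them at 10 (20.4%), against 21.8% and 21.4% of all shared regions. By fold enrichment the numbers were 15 lower (30.6%) and 6 higher (12.2%), against 29.8% and 11.2% of all shared regions. Both measures therefore put the 49 regions close to the genome as a whole. The median log2 difference in relative summit reads was −0.0023 over the 49 and −0.0057 over all shared regions. The lowest and highest of the 49 were −0.41 and 0.44, within or near the range of −0.37 to 0.44 that holds the middle 90% of all shared regions. With 2 libraries a group, an exact permutation test of a single region cannot give a p below 0.333, so no region was tested.

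The regions whose groups do not overlap in relative summit reads were spread over the loci. Over all shared regions, 21.4% were higher with siChst7 in this way and 21.8% lower. Of its 8 shared regions, Klf4 had 4 that were higher with siChst7 and 1 that was lower. The largest of them, 18.3 kb behind the Klf4 start, had relative summit reads of 0.683 and 0.517 in siControl and 0.770 and 0.848 in siChst7. Pou5f1 had 3 higher and 2 lower of 10, Tet1 1 higher and 3 lower of 8, and Nanog 0 higher and 2 lower of 5. Myc (of 7) and Lin28a (of 5) had 1 each way, Sox2 had 1 lower of 3, and Esrrb had none of 3. These are few regions per gene, and no gene was tested. The tallies by fold enrichment differed, where 11.2% of all shared regions were higher and 29.8% lower. Klf4 then had 1 higher and 1 lower, Pou5f1 3 and 4, Tet1 0 and 4, Myc 0 and 2, Sox2 1 and 1, Nanog 0 and 2, Lin28a 1 and 1, and Esrrb none.

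**Figure D5:**
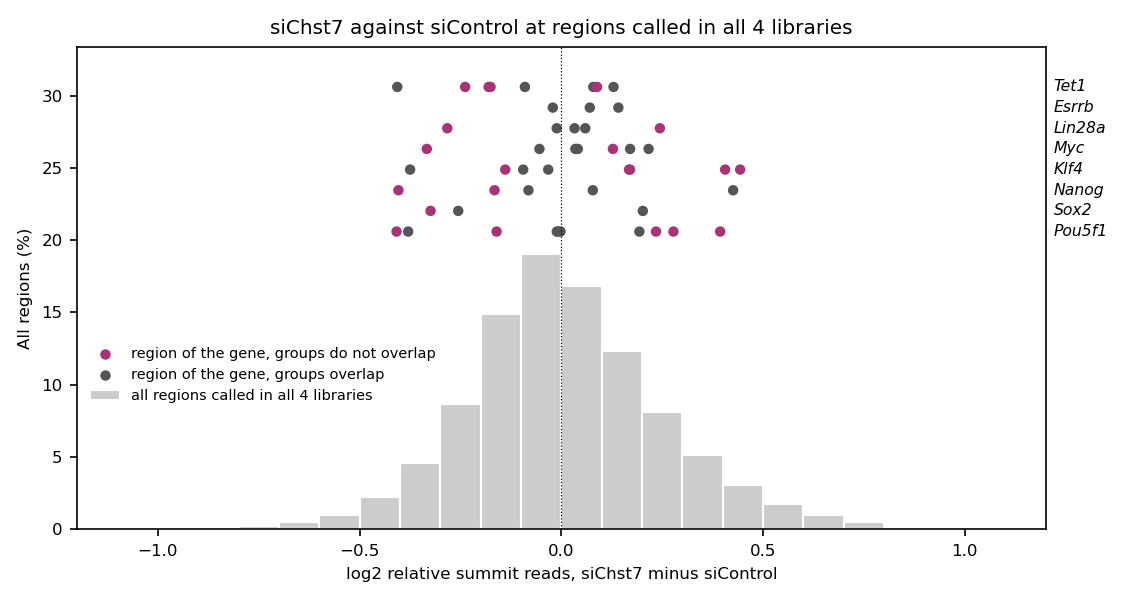
Grey bars give the percent of all regions called in all 4 libraries (y axis) by the log2 difference in relative summit reads, siChst7 minus siControl (x axis), and points above them show the 49 regions of the 8 genes, coloured by whether the 2 groups overlap. The points run from −0.41 to 0.44 on both sides of 0.

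As a share of each list, the peaks at the 10 genes numbered 64, 66, 63 and 57. Their share was 0.0869% ± 0.000417 with siControl (SD, n = 2) and 0.0854% ± 0.00104 with siChst7 (SD, n = 2). The difference of −0.00148 percentage points gave a two-sided exact permutation p of 0.333, the smallest that 2 against 2 allows. The single shares were 0.0866% and 0.0872% with siControl and 0.0847% and 0.0861% with siChst7, so the groups did not overlap. With 2 libraries a group the test cannot decide whether the siRNAs differ, and the sign changed under some settings given below. An exact 95% binomial interval for siControl replicate 1 was 0.0667% to 0.111%. It treats peaks as independent draws, while the libraries largely list the same regions, so it does not measure the spread between libraries.

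Other genes of the pluripotent state showed the same 2 kinds of start. Of 32 such genes, 11 had a start peak in all 4 libraries (34.4%, against 53.8% of all protein-coding genes), 20 had none in any, and Tfcp2l1 had a weak one in 3. The 11 were Tbx3, Klf2, Klf5, Tet2, Tet3, Stat3, Mycl, Dnmt3b, Prdm1, Rif1 and Zfp57. Stat3, which carries cytokine signals, Klf2, Klf5, Tet2 and Tet3 also act in many somatic cells. Stat3 had fold enrichments of 15.97 and 14.7 in siControl and 14.7 and 15.01 in siChst7, and Tet2, the relative of Tet1, 14.1 and 12.2 in siControl and 13.3 and 12.5 in siChst7. The genes with none included the embryonic stem cell genes Dppa3, Dppa5a, Utf1, Fgf4, Tdgf1, Gdf3 and Prdm14, and Lin28b, the relative of Lin28a. No gene of the 32 had a start peak in both libraries of only one siRNA. Among all protein-coding genes, 0.0823% had one in the siChst7 pair alone and 0.32% in the siControl pair alone. With shares so low, finding none among 32 says little about these genes.

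The labelled cell type was checked on marker lists. A start peak in all 4 libraries was found for 14 of 16 fibroblast genes (87.5%), against 53.8% of all protein-coding genes. The 14 included Col1a1, Thy1, Pdgfra and Twist1, while Col3a1 and Tcf21 lacked one. Of 12 markers of pluripotent cells, 7 of which are genes described here, Sox2 was the only one with such a peak (8.33%). The other 11 had none in any library, against 42.0% of all protein-coding genes.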

How the data were processed

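ATAC-seq was profiled in 4 libraries, 2 per siRNA. Tools named, without roles, in the submitters' processing notes are MACS3, Bowtie, HOMER, SAMtools and bedtools, with mm10 as the build. The sources used here do not say how duplicates, the Tn5 shift or multiple matches were treated. Each library has its own list of peaks, per the peak names in the files. The authors' values are a score (10 times the −log10 q, cut to a whole number), a fold enrichment (ratio of the summit pileup to the local background) and the −log10 p and −log10 q deposited for each summit; the lowest −log10 q lay just above 2. They describe a peak within its own list. Total read numbers were not used here, so precision rests on the reads at each summit.

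Peaks on chromosomes 1 to 19, X and Y that shared at least 1 bp were merged. Where a library had several peaks in a region, the one with the highest −log10 q was used. Summit reads and local background were recovered from fold = (reads + 1)/(background + 1) and the Poisson tail equal to the deposited p; a whole number matched within 0.01 on the −log10 scale for 98.7% to 99.6% of peaks, and for every peak at the 10 genes. Peaks with a −log10 p of 280 or more were not solved. Relative summit reads are these reads divided by the library's median over regions called in all 4 libraries. Starts came from the RefSeq promoter table (17491 of 21883 protein-coding genes), otherwise both gene ends were used. Intervals cover counting error only. Merging, calling and solving were tested on simulated data. The simulated fold and p were made with the same formula, so this checks the code and not whether the formula holds for the authors' values. Python 3.11.15, pandas 2.3.3, numpy 2.4.6 and scipy 1.17.1 were used.

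The 10 genes, the lists and the tests were chosen with earlier results of these data known. The one test, of each library's share of peaks at the 10 genes, was a two-sided exact permutation test; alternatives were list thresholds, list length, overlap, flanks, start window, the replicate number as a block and leaving out each library. The text names all 10 genes and, for each, the regions at the start, those called with one siRNA only, and the highest by median −log10 q in the body and in the flanks; other regions were named after their values were seen.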

Additional observations from a re-analysis of the deposited data

How the results depend on the processing

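The count of 4 genes with a start peak in every library was 4 under 10 of the 11 alternatives run and 3 with a −log10 q of at least 10, where Tet1 kept its peak in 3 libraries. The 11 of 32 other pluripotency genes became 10 to 13 and the 14 of 16 fibroblast genes 12 to 15. Alternatives were a −log10 q of at least 5 or 10, equal list length, peaks of at least 200 bp, windows of 500 bp or 2.5 kb, leaving out each library and, added after the data were seen, both ends of every gene. With 2.5 kb, Lin28a gained a start peak in 3 libraries and Esrrb in 1. With other flanks the number of regions changes: 49 of 82 were called in every library with 50 kb, 23 of 40 with 10 kb and 74 of 123 with 100 kb, against 62.0% of all regions.

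The counts of 1 for each siRNA changed with the settings. The share of all regions under the same setting is given in brackets. The siChst7 count was 0 with a −log10 q of at least 5 (1.21%) or 10 (1.00%), with equal list length (1.96%) and with 10 kb flanks (1.24%). It was 2 with 200 bp summit windows (1.54%) or 100 kb flanks (1.24%), and 1 to 6 without a library (3.05% to 6.53%). The siControl count was 0 with a −log10 q of at least 10 (2.69%). It was 2 with equal list length (2.05%) or summit windows (3.10%), and 2 to 8 without a library (4.56% to 9.03%). With 40 to 123 regions at the genes, such small counts say little about them. The difference in the share of peaks turned to 0.000987 and 0.00127 percentage points with a −log10 q of at least 5 and 10, and to 0.00132 with 100 kb flanks; leaving out a library gave −0.00222 to −0.000748. The cause was not tested. With the replicate number as a block the difference was −0.00148 (exact p = 0.5, the smallest possible). Same-numbered libraries did not deviate together over shared regions (r = 0.014), so the numbers are not shown to pair the samples. Median summit reads of shared regions were 46 in siChst7 replicate 2 and 58 to 61 in the others; their part in missing calls was not tested.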

Other observations

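Markers of other cell types were looked at in the same way. None of 5 neural genes (Sox1, Pax6, Tubb3, Neurod1 and Olig2) and none of 4 endothelial genes (Pecam1, Cdh5, Kdr and Tek) had a start peak in any library. Of 4 epithelial genes, Krt8 had one in all 4 libraries. Of 7 cardiomyocyte genes, Tnnt2, the cardiac troponin T gene, and Nppa, the atrial natriuretic peptide gene, had one in all 4 libraries. Myh6 and Myl7 had one in 3, and Actc1, Nkx2-5 and Ryr2 in none. Myh6 lacked it in siChst7 replicate 2, with −log10 q of 63.2 and 53.6 in siControl and 64.3 in siChst7 replicate 1. Myl7 lacked it in siChst7 replicate 1, with 15.6 and 12.2 in siControl and 3.03 in siChst7 replicate 2. The line is labelled Myh6-eGFP, and whether that construct adds to the Myh6 peak was not tested. Among all protein-coding genes, 53.8% had a start peak in all 4 libraries and 42.0% had none in any. These are counts of listed peaks with no test, and lists of 4 to 7 genes are too short to set against those shares.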
